A study of Mus musculus with 6 samples.

Results

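The Rab GTPases measured here are the 59 genes whose platform annotation gives exactly 1 symbol made of Rab, a number and at most 1 letter from a to d, out of 18193 genes on the array. They are covered by 132 of the 45037 tested probe sets, and a probe set is a group of short probes for the same transcript. The gene level was read from the brightest probe set, that with the highest average of the 6 arrays. All 59 carried the same symbol in RefSeq's gene list for GRCm38.p6. No filter on low values was applied to them, and 9 of the 59 had a mean below 5 on the log2 scale, where specific signal and background are hard to separate.

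The arrays were Affymetrix whole-genome mouse expression arrays, hybridised with labelled RNA from dissected and frozen cerebellum of 3 wild-type mice and 3 transgenic mice of genotype daDREAM, each array an independent biological replicate per the series' design text. DREAM, the product of Kcnip3, represses transcription until calcium binds it, and daDREAM is a mutant form that represses irrespective of calcium. The sources used here do not state strain, age, sex or the promoter that drives the transgene. The comparison asks which transcripts differ between the genotypes. Cerebellar markers were bright on all arrays, for example Pcp2 of Purkinje cells with log2 levels of 12.41 ± 0.03 (SD, n = 3) in wild type and 12.46 ± 0.02 in the transgenic group, and the forebrain gene Neurod6 was dim, at 3.04 ± 0.10 and 3.05 ± 0.23. Kcnip3 itself read 9.02, 9.08 and 9.31 in wild type and 8.95, 9.42 and 9.33 in daDREAM, with overlap, and since the position of its probes relative to the transgene is not known here this does not check the labels. In tissue of mixed cell types, fewer cells of a type and less RNA per cell cannot be told apart.

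Rab proteins are small GTPases that switch between a GDP-bound form held in the cytosol and a GTP-bound form on membranes, where they recruit effectors for budding, transport, tethering and fusion of vesicles. Exchange factors turn them on, GTPase-activating proteins turn them off, and lipid groups at the C terminus anchor them. Most are found in every cell, while some paralogs, such as Rab3a on synaptic vesicles, are concentrated in neurons. DREAM binds a downstream regulatory element, a DNA site with the core letters GTCA.

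Promoter sequence is shown for Rab3a and Rab3d, the 1 pair of paralogs, of 8 compared, whose within-array difference did not overlap between genotypes, and for Rab5b, since Rab5b and Rab3d were the 2 genes of the 59 without overlap. Each line gives the 250 bases before a RefSeq start site in GRCm38.p6, 5′ to 3′ on the strand of the gene, with GTCA or its reverse complement TGAC in capitals. Of the start sites of Rab3a in the table, the first along the chromosome is printed. The windows are chr8:70754453-70754702 on the plus strand for Rab3a, chr9:21918184-21918433 on the minus strand for Rab3d and chr10:128696269-128696518 on the minus strand for Rab5b.
Rab3a: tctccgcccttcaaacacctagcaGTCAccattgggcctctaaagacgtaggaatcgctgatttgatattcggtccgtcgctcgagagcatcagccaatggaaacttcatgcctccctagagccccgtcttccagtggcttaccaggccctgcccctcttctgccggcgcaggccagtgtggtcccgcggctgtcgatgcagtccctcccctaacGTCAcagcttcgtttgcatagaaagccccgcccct
Rab3d: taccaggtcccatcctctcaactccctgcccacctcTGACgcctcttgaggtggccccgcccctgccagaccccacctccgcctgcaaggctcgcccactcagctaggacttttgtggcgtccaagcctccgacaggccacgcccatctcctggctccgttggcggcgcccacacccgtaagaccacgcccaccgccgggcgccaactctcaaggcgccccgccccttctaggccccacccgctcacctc
Rab5b: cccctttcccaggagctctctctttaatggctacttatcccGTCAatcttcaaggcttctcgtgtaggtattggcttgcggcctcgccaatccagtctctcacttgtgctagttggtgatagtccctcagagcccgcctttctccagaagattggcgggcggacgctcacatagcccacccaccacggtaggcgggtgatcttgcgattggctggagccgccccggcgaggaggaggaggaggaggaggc

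The printed window of Rab3a held 2 matches, and those of Rab3d and Rab5b held 1 each. The upstream window of the next start site of Rab3a along the chromosome held 1. Over the 300-base windows of the table, which run 50 bases past the start, 53 of the 60 windows of 48 Rab genes held the letters on either strand, 88.3%, against 85.2% of all 32851 windows. Within the 50 bases after the start the shares were 26.7% and 27.2%. The same letters both occur in TGACGTCA, the cAMP response element, which 2 of the 60 Rab windows, 3.33%, and 1.79% of all windows held. Such short letters are common, a match is a description, and binding was not measured.

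No Rab gene passed the test between genotypes. Of the 59 genes, 0 reached an adjusted p under 0.05 in limma with Benjamini-Hochberg adjustment over all probe sets, where 0% of all probe sets did, and the smallest adjusted p of a Rab gene was 0.998. At an unadjusted p under 0.05 there were also 0 of 59 Rab genes, where 1.42% of all genes lay below that value, 0.951% higher and 0.473% lower in daDREAM. A p that misses the threshold does not show that the genotypes are equal. With a trended and robust variance prior both counts were again 0. The mean of daDREAM lay below that of wild type in 37 genes and above it in 22, with a median difference of -0.04 log2 units against 0.01 over all genes, but the balance turned under 4 alternatives. It was 29 lower and 30 higher after renewed quantile normalization, 28 and 30 with the mean of each gene's probe sets, 26 and 33 without daDREAM replicate 3, and 17 and 42 with the hybridization controls as a covariate. The median moved with single arrays, to -0.10 without daDREAM replicate 1, -0.08 without wild-type replicate 3, -0.07 without daDREAM replicate 2 and 0.01 without daDREAM replicate 3. Among genes with a mean of at least 5 the median difference was -0.04 for Rab genes and -0.01 for all genes. The median absolute difference was 0.09 for Rab genes and 0.10 for all genes. The 95% intervals of 58 of the 59 genes lay within 2-fold in either direction, and those of 35 within 0.5 log2 units.

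**Figure D1:**
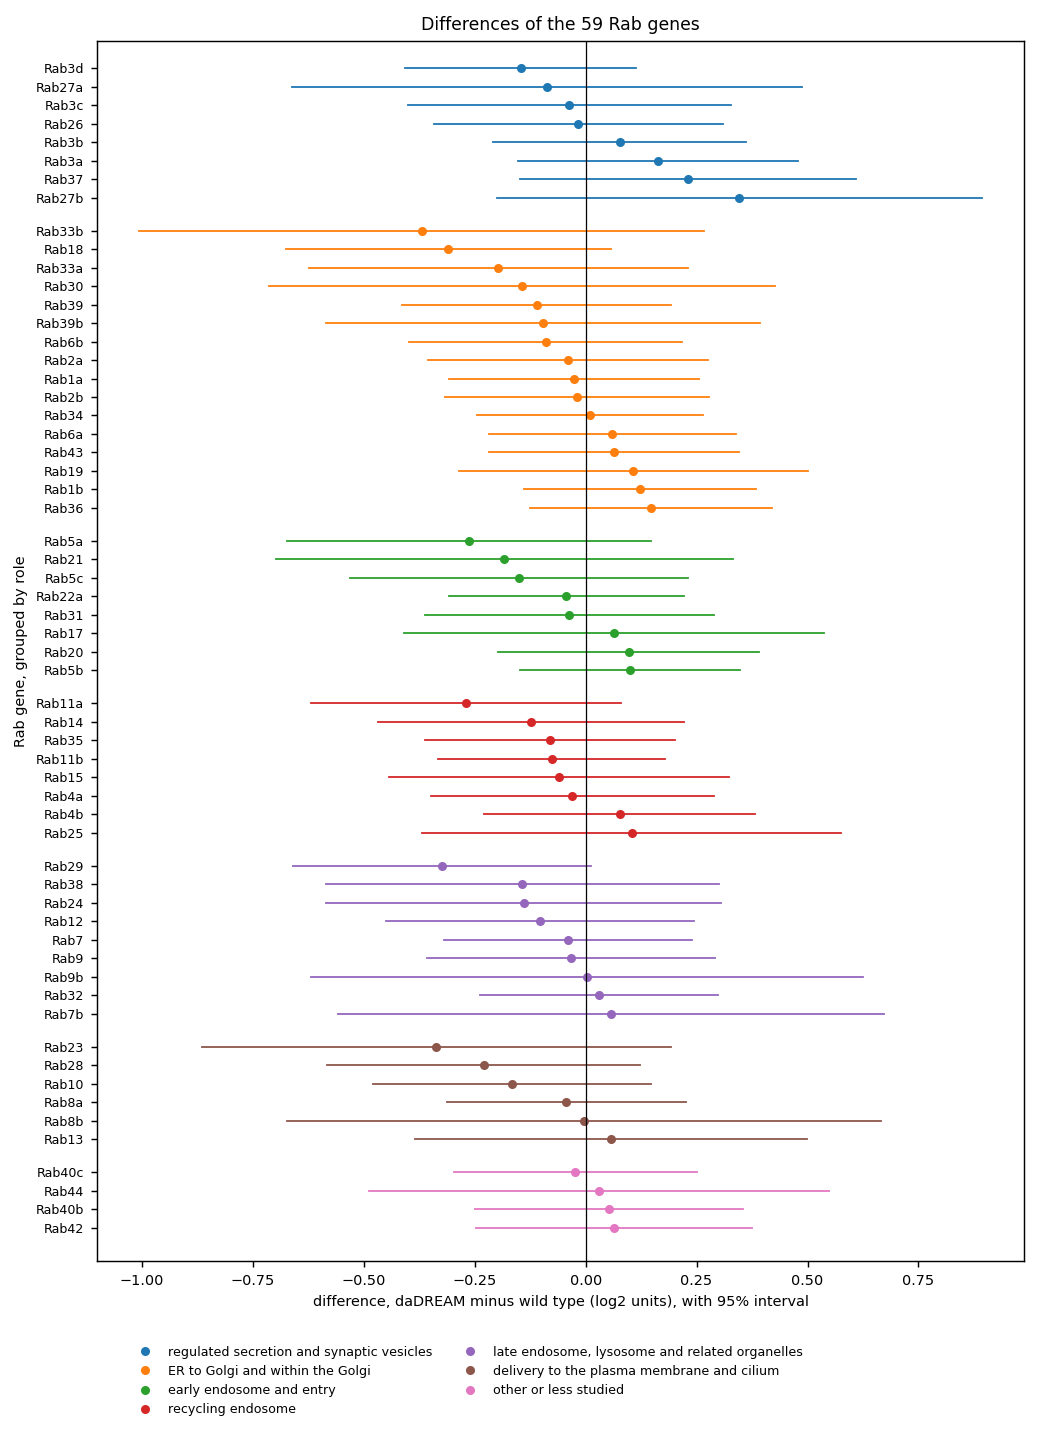
Differences of the 59 Rab genes, daDREAM minus wild type in log2 units on the x axis, 1 row per gene coloured by role, with dots for the differences and lines for the 95% intervals of limma. Every interval includes 0, and the differences run from -0.37 for Rab33b to 0.35 for Rab27b.

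The genotypes did not overlap in 2 of the 59 genes, Rab5b on the higher side and Rab3d on the lower side. Over all genes 5.59% did not overlap, 3.55% higher and 2.04% lower in daDREAM, and 2 of 59 is no larger a share. The count depended on single arrays. Without daDREAM replicate 1 it was 18 of 59, or 30.5%, against 34.0% of all genes. Without wild-type replicate 3 it was 11, or 18.6% against 18.1% of all genes. Without daDREAM replicate 3 it was 8, or 13.6% against 13.5%, and without wild-type replicate 1 it was 4, or 6.78% against 8.93%.

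Among the Rabs of regulated secretion, 4 of 8 genes were higher and 4 lower in daDREAM, and none passed the limma test. Rab3a, the main synaptic vesicle Rab of neurons, read 10.96, 11.07 and 10.99 on the wild-type arrays and 10.93, 11.31 and 11.27 on the daDREAM arrays, in log2 expression. The groups overlapped, since daDREAM replicate 1 was the lowest array of all. The difference was 0.16 with a 95% interval from -0.15 to 0.48, a factor of 1.12 (limma adjusted p = 0.998), and the other probe set of Rab3a differed by -0.04. The 0.16 was 0.28 without daDREAM replicate 1 and 0.09 without daDREAM replicate 2. The related vesicle Rabs Rab3b and Rab3c differed by 0.08 and -0.04, and Rab26, implicated in autophagy of synaptic vesicles, by -0.02.

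Rab3d, which marks secretory granules of many non-neuronal secretory cells, read 6.51, 6.52 and 6.51 in wild type and 6.27, 6.36 and 6.47 in daDREAM. All daDREAM arrays lay below all wild-type arrays. The difference was -0.15 (95% interval -0.41 to 0.11), and it did not pass (limma adjusted p = 0.998). Its 3 other probe sets were lower as well. The next brightest read 6.49, 6.69 and 6.43 in wild type and 6.28, 6.25 and 6.32 in daDREAM, again without overlap, a difference of -0.25. The other 2 differed by -0.35 and -0.19, with overlap. The 4 probe sets read the same RNA samples and are not replicates.

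Rab27a and Rab27b, which tether secretory granules and melanosomes, gave probe sets of opposite sign. The probe set of Rab27b with the highest mean read 4.28, 4.63 and 4.60 in wild type and 4.50, 4.64 and 5.41 in daDREAM. Its difference of 0.35, with an interval from -0.20 to 0.89, was the highest of the family, and it was 0.07 without daDREAM replicate 3. The 3 other probe sets differed by -0.07 to 0.06, and all 4 of them were dim. Rab27a differed by -0.09 at its brightest probe set, which read 6.30, 6.31 and 6.33 in wild type and 6.74, 6.31 and 5.63 in daDREAM. Rab37, a Rab of secretory granules, read 6.33, 6.21 and 6.31 in wild type and 6.86, 6.40 and 6.28 in daDREAM. Its 2 probe sets differed by 0.23 and 0.36, both with overlap, and the first by 0.06 without daDREAM replicate 1.

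**Figure D2:**
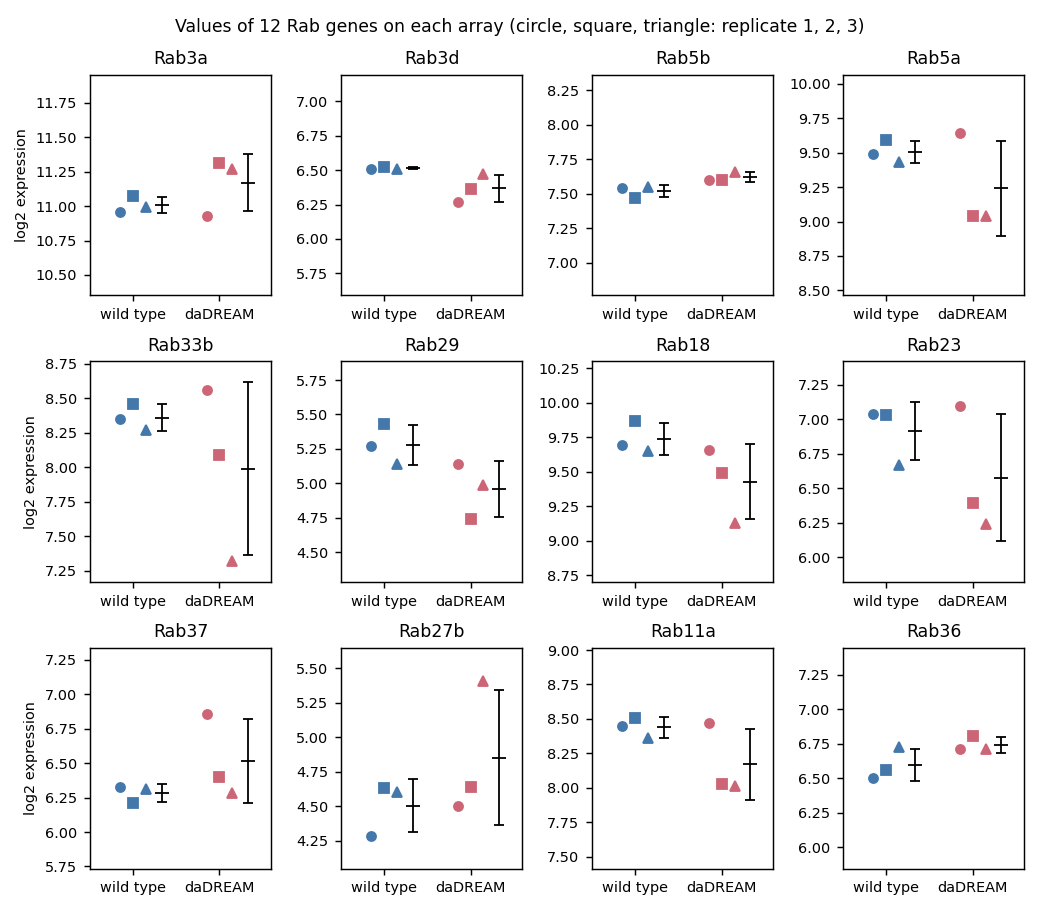
Log2 expression of 12 Rab genes on each array, wild type in blue and daDREAM in red, with a bar for the mean and SD of each genotype (n = 3); each panel spans 1.6 log2 units. Rab3d and Rab5b are the genes without overlap, and in Rab5a, Rab33b, Rab23 and Rab11a daDREAM replicate 1 lies with or above wild type while replicates 2 and 3 lie below it.

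The Rabs of transport from the endoplasmic reticulum and through the Golgi had 10 of 16 genes lower and 6 higher, with a median difference of -0.03. Rab33b, a Golgi Rab that also takes part in autophagy, read 8.35, 8.46 and 8.27 in wild type and 8.56, 8.09 and 7.32 in daDREAM. Here daDREAM held both the highest and the lowest array. The difference of -0.37, with an interval from -1.01 to 0.27, was the lowest of the family, and it was -0.04 without daDREAM replicate 3 and -0.66 without daDREAM replicate 1. Rab18, a Rab of lipid droplets and the endoplasmic reticulum, read 9.69, 9.87 and 9.65 in wild type and 9.66, 9.49 and 9.13 in daDREAM. Only daDREAM replicate 1 reached the wild-type range, and the difference was -0.31 with an interval from -0.68 to 0.06 (limma adjusted p = 0.998). It was -0.16 without daDREAM replicate 3, and the other probe set of Rab18 differed by -0.07.

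The Rabs that drive the first step from the endoplasmic reticulum to the Golgi had small differences, none past the test. Rab1a read 10.76, 10.83 and 10.79 in wild type and 10.92, 10.76 and 10.62 in daDREAM, a difference of -0.03 (95% interval -0.31 to 0.26). Rab1b differed by 0.12, and Rab2a and Rab2b by -0.04 and -0.02. Rab36, a Golgi Rab, read 6.50, 6.56 and 6.73 in wild type and 6.71, 6.81 and 6.71 in daDREAM, with overlap at 1 wild-type array and a difference of 0.15. Rab30, Rab34, Rab43 and Rab19 differed by -0.14 to 0.11, and Rab33a, Rab6a, Rab6b, Rab39 and Rab39b, given with the paralog pairs, by -0.20 to 0.06.

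Early endosome Rabs had 5 of 8 genes lower and 3 higher. Rab5a, which governs fusion of early endosomes, read 9.49, 9.59 and 9.43 in wild type and 9.64, 9.04 and 9.04 in daDREAM. The highest array was a daDREAM array and the lowest were the other two, and the difference of -0.26 had an interval from -0.67 to 0.15. It was -0.46 without daDREAM replicate 1 and -0.16 without either of the other daDREAM arrays. Its paralog Rab5b read 7.54, 7.47 and 7.55 in wild type and 7.60, 7.60 and 7.66 in daDREAM. All daDREAM arrays lay above all wild-type arrays, by a difference of 0.10 (95% interval -0.15 to 0.35, limma adjusted p = 0.998), and its other probe set differed by 0.00. The third paralog, Rab5c, differed by -0.15, and Rab21, Rab22a, Rab31, Rab17 and Rab20 by -0.18 to 0.10.

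Recycling Rabs had 6 of 8 genes lower and 2 higher, with a median difference of -0.07. Rab11a, a ubiquitous Rab of the recycling endosome, read 8.45, 8.51 and 8.36 in wild type and 8.47, 8.03 and 8.01 in daDREAM. Here daDREAM replicate 1 lay in the wild-type range and the other 2 below it, and the difference was -0.27 with an interval from -0.62 to 0.08, or -0.42 without daDREAM replicate 1. Rab14, which acts between the Golgi and endosomes, was lower at all 7 of its probe sets, by -0.31 to -0.08, and none passed. The fast-recycling Rabs Rab4a and Rab4b differed by -0.03 and 0.08, and Rab35, Rab15 and Rab25 by -0.08, -0.06 and 0.10.

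Late endosome and lysosome Rabs had 6 of 9 genes lower and 3 higher. Rab29, a Rab of the Golgi and lysosomes that binds the kinase Lrrk2, had the smallest unadjusted p of the family, 0.0571 in limma. It read 5.27, 5.43 and 5.14 in wild type and 5.14, 4.74 and 4.99 in daDREAM, so the groups met at a single value. The difference was -0.32 (95% interval -0.66 to 0.01, limma adjusted p = 0.998), at a level near the dim end and from 1 probe set, and it was -0.22 without daDREAM replicate 2. Rab7, the Rab of late endosomes, differed by -0.04 with an interval from -0.32 to 0.24. Rab24, Rab38, Rab12 and Rab32 differed by -0.14 to 0.03, and Rab7b by 0.06.

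Rabs of delivery to the plasma membrane and cilium had 5 of 6 genes lower and 1 higher, with a median difference of -0.11. Rab23, an antagonist of Hedgehog signalling, read 7.04, 7.03 and 6.67 in wild type and 7.10, 6.39 and 6.24 in daDREAM. The groups overlapped at daDREAM replicate 1, and the difference was -0.34 with an interval from -0.87 to 0.19, while its other 2 probe sets differed by 0.03 and 0.16. It was -0.60 without daDREAM replicate 1 and -0.17 without daDREAM replicate 3. Rab10, which carries vesicles to the plasma membrane, was lower at all 3 probe sets, by -0.21 to -0.13, with overlap at its brightest. Rab28, a ciliary Rab, differed by -0.23, and Rab13, a Rab of tight junctions, by 0.06. The remaining Rab40b, Rab40c, Rab42 and Rab44, which are less studied, differed by -0.02 to 0.06, and Rab42 led them at 0.06.

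A list of neuronal or brain-enriched members was then set beside a list of their paralogs. The second list was drawn up as ubiquitous, but it holds Rab3d and Rab27a, described above as Rabs of secretory granules, and the dim Rab39. The first list holds Rab27b, also described above as a Rab of secretory granules, which was dim at a mean of 4.68. Of 12 neuronal or brain-enriched genes 8 were lower and 4 higher, with a median difference of -0.03. Of the 8 measured genes of the paralog list 7 were lower and 1, Rab6a, was higher, with a median difference of -0.10. Rab6a was lower at its other probe sets, and genes of both lists turned sign under the alternatives given at the end. The 62.7% of all Rab genes that were lower, and 48.0% of all genes, are the background to these counts. Among genes with a mean of at least 5, 72.0% of the 50 Rab genes and 53.5% of all genes were lower. The lists share arrays and several pairs of close relatives, and no test of their medians was made.

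For 8 pairs the log2 difference between the paralogs was taken on each array, so that a constant difference in probe brightness cancels. An array's shift that differs between bright and dim genes does not cancel, and Rab3a and Rab3d had mean levels of 11.09 and 6.44. The paralog differences were compared between genotypes with a 2-sided exact permutation test. With 3 arrays against 3 this cannot go below 0.1. Rab3a minus Rab3d was 4.45, 4.55 and 4.48 in wild type and 4.66, 4.95 and 4.80 in daDREAM. All daDREAM arrays lay above all wild-type arrays, by 0.31 ± 0.09 (SE, n = 3 per genotype; exact permutation p = 0.1, adjusted p = 0.8 over the 8 pairs). Leaving out each array in turn gave 0.24 to 0.38, and the mean of all probe sets of each gene gave 0.30. Of this shift, 0.16 came from the higher mean of Rab3a and the rest from the lower mean of Rab3d, at -0.15.

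The Golgi paralogs ran the other way. Rab6b, the neuronal form, minus Rab6a was -0.65, -0.59 and -0.72 in wild type and -0.72, -0.85 and -0.84 in daDREAM. The genotypes met at -0.72, and the shift was -0.15 ± 0.06 (SE; exact permutation p = 0.2, adjusted p = 0.8). With the mean of all probe sets of each gene it was 0.14, of opposite sign. Rab6a itself differed by 0.06 at its brightest probe set and by -0.25 and -0.03 at the others, and Rab6b by -0.09 and by 0.05 to 0.18.

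The recycling paralogs, brain-enriched Rab11b minus Rab11a, were 1.42, 1.49 and 1.58 in wild type and 1.44, 1.84 and 1.79 in daDREAM. The groups overlapped at daDREAM replicate 1, and the shift was 0.19 ± 0.13 (SE; exact permutation p = 0.3, adjusted p = 0.8). It was 0.32 without daDREAM replicate 1 and 0.12 without daDREAM replicate 2. Rab27b minus Rab27a shifted by 0.43 ± 0.61, the widest error of the 8 pairs, and daDREAM replicate 3 read -0.22 and the other 5 arrays between -2.24 and -1.67. Without that array the shift was -0.15. Rab33a minus Rab33b shifted by 0.17 ± 0.19, with both members lower in daDREAM, at -0.20 and -0.37. Leaving out 1 array moved this shift between 0.03 (without daDREAM replicate 3) and 0.30 (without daDREAM replicate 1), with 0.28 without wild-type replicate 3 and 0.10 without wild-type replicate 2.

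In the other 3 pairs the shift was small beside its error. Rab8b minus Rab8a, Rabs of traffic to the plasma membrane, shifted by 0.04 ± 0.36 (SE; exact permutation p = 0.9). Rab8b itself read 8.05, 8.18 and 7.57 in wild type and 8.60, 7.69 and 7.50 in daDREAM, and 1 daDREAM array lay above and 1 below every wild-type array. Its difference of -0.00 has an interval from -0.67 to 0.67. Rab9b minus Rab9, Rabs of return from endosomes to the Golgi, shifted by 0.04 ± 0.24, and Rab39b minus Rab39 by 0.01 ± 0.22, with Rab39 dim. Rab39b, a neuronal Rab whose human counterpart is mutated in X-linked intellectual disability, differed by -0.10 at its brightest probe set and by -0.11 at the other.

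**Figure D3:**
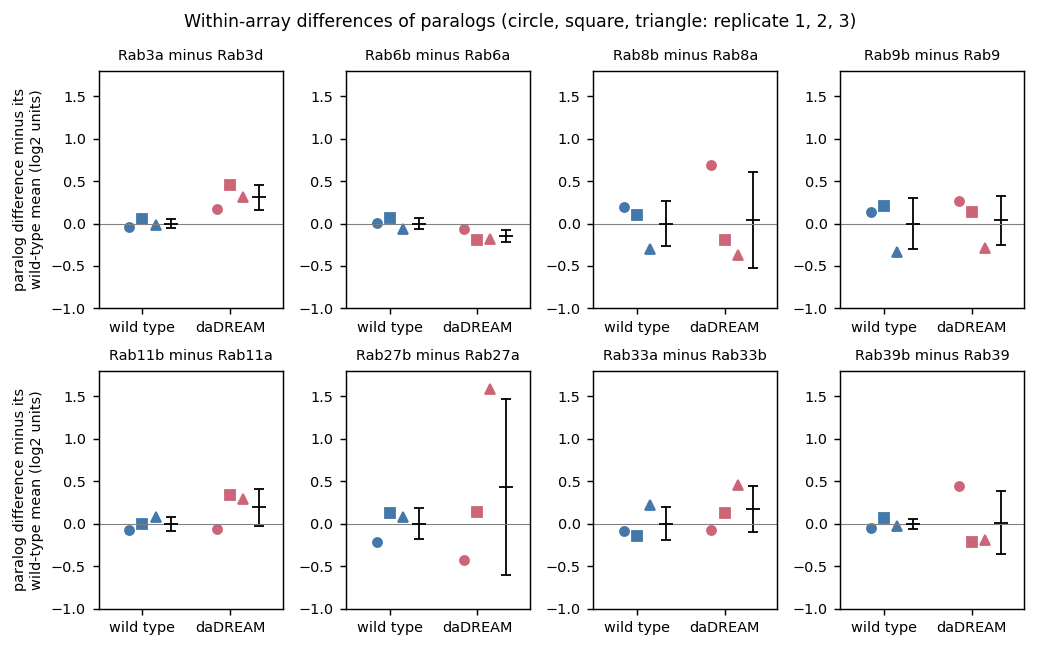
Within-array log2 difference of each of 8 pairs of Rab paralogs, neuronal or brain-enriched minus the other paralog, after subtracting its wild-type mean; wild type in blue, daDREAM in red, bars for mean and SD (n = 3). In Rab3a minus Rab3d all daDREAM arrays lie above wild type, and in Rab27b minus Rab27a daDREAM replicate 3 lies far above the rest.

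Probe sets of the same gene often differed in sign. Of the 38 Rab genes with several probe sets, 10 were lower at all of them, 6 were higher at all and 22 were mixed, 57.9%, against 57.3% of all genes with several. Among all 132 probe sets 71 were lower and 61 higher, and 8 did not overlap, 4 in each direction. These are 6.06%, where 6.01% of all probe sets did not overlap, 3.75% higher and 2.26% lower. Of the 132, 2 (1.52%) had an unadjusted p under 0.05 in limma, against 1.81% of all, 1.11% higher and 0.706% lower. The first of these, of Rab27a, read 4.84, 4.76 and 4.97 in wild type and 4.42, 4.61 and 4.20 in daDREAM, a difference of -0.45. The second, of Rab2b, read 5.64, 5.71 and 5.78 in wild type and 6.02, 6.08 and 6.03 in daDREAM, a difference of 0.33. Neither passed after adjustment (limma adjusted p = 0.998 for both). The other probe sets of Rab27a differed by -0.09 to 0.26 and those of Rab2b by -0.20 to -0.02, so in Rab2b this probe set ran against all others and in Rab27a against 2 of 3.

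**Figure D4:**
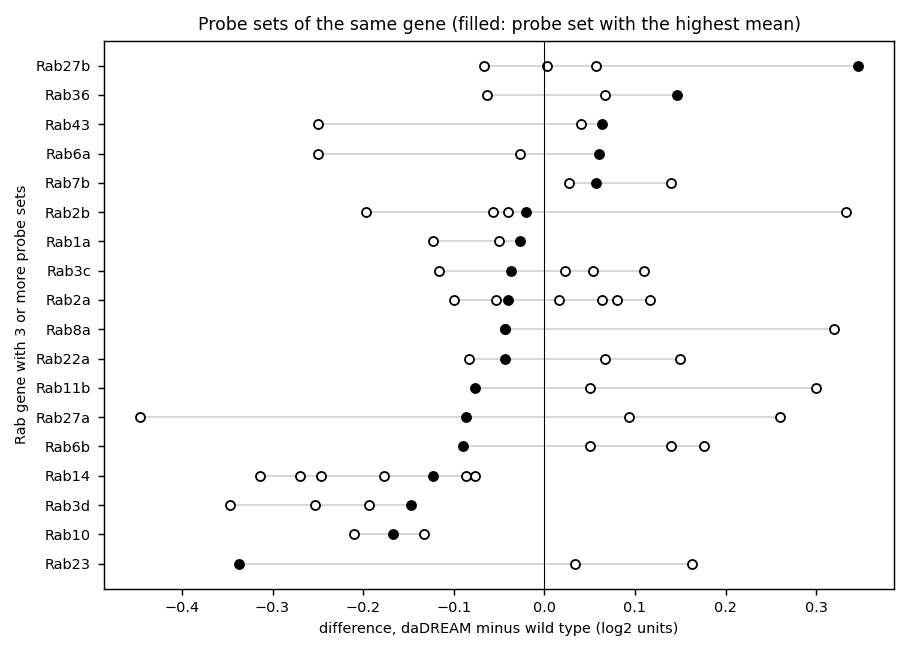
Differences of all probe sets of the 18 Rab genes with 3 or more, daDREAM minus wild type in log2 units, 1 row per gene; filled dots are the probe sets with the highest mean. Rab14, Rab3d, Rab10 and Rab1a lie below 0 at all their probe sets, while Rab27a spans -0.45 to 0.26.

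The daDREAM arrays differed more among themselves than the wild-type arrays. The median SD of a Rab gene was 0.11 in wild type and 0.21 in daDREAM, and the daDREAM SD was the larger in 45 of 59 genes, 76.3%, against 71.4% of all genes. Of the 50 Rab genes with a mean of at least 5, daDREAM replicate 3 was the lowest daDREAM array in 34, 68.0%, against 52.4% of all genes of that level, and replicate 1 was the highest in 31, 62.0%, against 54.9%. The median deviation of these 50 genes from their wild-type means was 0.08 on daDREAM replicate 1, -0.03 on replicate 2 and -0.22 on replicate 3. For all genes of that level it was 0.07, -0.02 and -0.09. The 9 dim Rab genes ran the other way, at -0.08, 0.07 and 0.21, as did all genes with a mean below 5, at -0.13, 0.06 and 0.16.

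**Figure D5:**
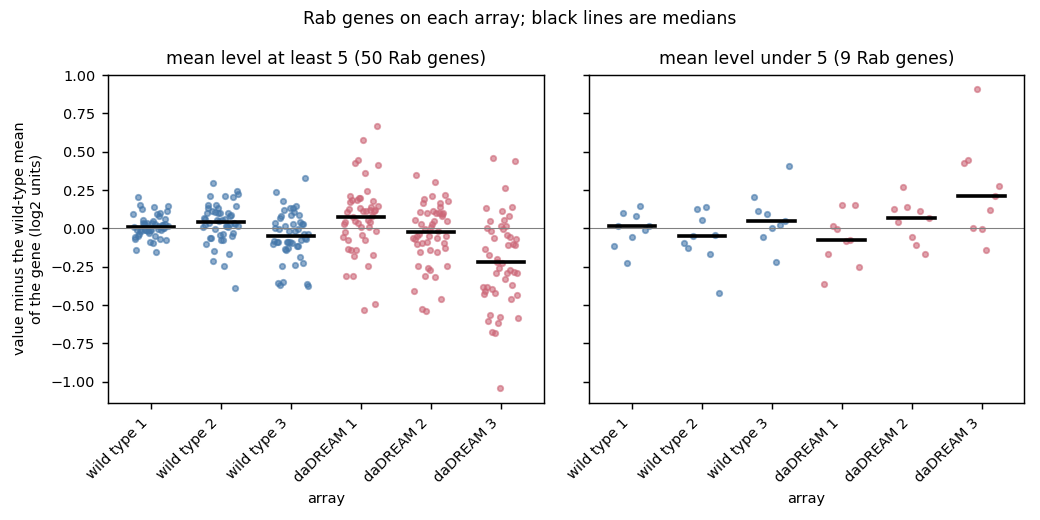
Deviation of each Rab gene from its own wild-type mean on each of the 6 arrays, in log2 units, for the 50 genes with a mean of at least 5 (left) and the 9 dimmer ones (right); black lines are medians. On daDREAM replicate 3 the median is -0.22 on the left and 0.21 on the right.

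Whole-array values also differed among the arrays. The interquartile range of all probe sets was 3.49 on daDREAM replicate 1, 3.15 on replicate 2 and 2.97 on replicate 3, against 3.10 to 3.38 in wild type. The mean of 18 hybridization control probe sets was 9.15 ± 0.28 in wild type and 10.03 ± 0.51 in daDREAM (SD, n = 3; exact permutation p = 0.2). All 10 choroid plexus markers were higher in daDREAM, with array means of 5.84 to 6.04 in wild type and 6.18 to 6.52 in daDREAM, as were all 6 microglial markers, at 6.37 to 6.48 and 6.55 to 6.68. Markers of granule cells had 7 of 8 genes lower (10.90 to 10.96 and 10.70 to 10.99), and those of Purkinje cells 4 of 6 (11.45 to 11.63 and 11.47 to 11.58). Of the other lists, 3 of 5 oligodendrocyte markers, 3 of 6 of astrocytes and Bergmann glia, 2 of 4 of blood and 1 of 4 of forebrain were lower. No marker passed the adjusted threshold. The part of these in the Rab values was not tested.

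Genes listed as acting on Rabs, as Rab effectors or as Rab-like GTPases were followed in 5 lists. None of their 114 measured genes passed the limma test, where 0% of all genes did. None had an unadjusted p under 0.05 in limma, where 1.42% of all genes did. Of the 114 genes 65 (57.0%) were lower and 46 higher in daDREAM, with a median difference of -0.02. Over all genes 48.0% were lower, with a median of 0.01. Of all genes with a mean of at least 5, 53.5% were lower, with a median of -0.01. The carriers and lipid-modifying enzymes had 5 of 7 lower, led by Rabif, a Rab chaperone, at -0.23, with its other probe sets from -0.25 to 0.02. Gdi2, which extracts Rabs from membranes, differed by -0.10. The exchange factors had 16 of 27 lower. Dennd5b led them at -0.45, with an interval from -1.02 to 0.12 and other probe sets from -0.24 to 0.10, and Madd, the exchange factor of Rab3, differed by -0.07. Dennd1a, an exchange factor of Rab35, had the smallest unadjusted p of the 114, 0.0532 in limma. It read 7.34, 7.38 and 7.34 in wild type and 7.60, 7.64 and 7.55 in daDREAM, without overlap, a difference of 0.24 at its single probe set.

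The GTPase-activating proteins had 19 of 37 lower and 16 higher, led by Tbc1d10c at 0.33, a dim gene with a mean level of 4.69. Rab3gap1, the catalytic subunit of the complex that turns Rab3 off, read 8.17, 8.19 and 8.12 in wild type and 8.05, 7.91 and 7.97 in daDREAM. It was the gene of that list whose daDREAM arrays all lay below wild type, at -0.18, and its partner Rab3gap2 differed by 0.05. Among the effectors 21 of 38 were lower and 16 higher, led by Rab11fip1, which binds Rab11, at 0.40. Its mean level of 4.74 was dim, and its other probe set differed by 0.04. The Rab3 effectors Rims1 and Rph3a of the presynaptic terminal differed by -0.10 and -0.03, and Eea1, the tether that binds Rab5, by -0.25. The Rab-like GTPases had 4 of 5 lower, led by Rabl3 at -0.26, with its other probe set at 0.10. Without overlap, 3 of the 114 were higher (Dennd1a, Tbc1d22a at 0.22 and Rabl6 at 0.20) and 1, Rab3gap1, was lower, where 3.55% and 2.04% of all genes were. The other probe set of Tbc1d22a differed by -0.04, and those of Rabl6 by -0.13 to 0.49.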

How the data were processed

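The values are on a log2 scale as deposited by the authors, who used RMA in the affy package per the submitters' processing notes. No version is stated in the sources used here. RMA corrects background, equalises probe distributions across arrays and summarises probes, so a shift common to most genes would not be seen. The values carry no detection call. Columns were matched to samples by name and genotype taken from the titles.

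The 64 control probe sets were left out, and 45037 were fitted by lmFit and eBayes of limma 3.58.1 (R 4.3.3), with no replicate block, 2-sided tests, Benjamini-Hochberg adjustment over all of them at 0.05 and 95% intervals. Precision is limited by the number of arrays, and the median interval reached 0.35 log2 units to either side. The fit was run on simulated data with known changes as a check of the estimated sizes, and the share of small changes called is not reported here. Paralog pairs were tested by exact permutation.

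The members, role lists, pairs, lists of Rab regulators, effectors and Rab-like GTPases, and the naming rule were chosen with earlier results of these data known. The rule named Rab genes past the adjusted threshold, with an unadjusted p under 0.05 or without overlap, the 5 highest and 5 lowest differences, all paralogs paired, and the gene with the largest absolute difference in each list. Other genes named, and single probe sets, were chosen after their values were seen. Alternatives were a replicate block, median centring, renewed quantile normalization, another variance prior, the hybridization controls' mean as a covariate, the mean of a gene's probe sets, a limit on mean level, and each array left out. Promoter sequences are from RefSeq, GRCm38.p6.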

Additional observations from a re-analysis of the deposited data

How the results depend on the processing

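The count of Rab genes past the adjusted threshold was 0 in the limma fit and in all 13 alternatives. The hybridization control level was higher in daDREAM, so that the 2 cannot be fully told apart in this fit. With it as a covariate the family median was 0.11 in place of -0.04 and 14 genes had an unadjusted p under 0.05, where 23.2% of all probe sets did. Single genes and pairs below are those of the Rab genes named by the rule and the 8 pairs, and other Rab genes turned sign as well. In that fit these differences had the opposite sign to the fit without it: Rab11a 0.11, Rab18 0.071, Rab23 0.41, Rab27a 0.60, Rab27b -0.25, Rab33a 0.17, Rab33b 0.46, Rab39 0.064, Rab39b 0.54, Rab3a -0.076, Rab5a 0.21, Rab6b 0.19, Rab8a 0.030, Rab8b 0.98 and Rab9 0.25. The cause was not tested.

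With the mean of a gene's probe sets 1 gene, Rab29, had an unadjusted p under 0.05 (1.69% against 1.85% of all genes). Among the named genes and pairs, signs turned for Rab11b (0.091), Rab6a (-0.072), Rab6b (0.069), Rab8a (0.078), the pair Rab6b and Rab6a (0.14) and the pair Rab8b and Rab8a (-0.14). After renewed quantile normalization they turned for Rab8a (0.00056), Rab8b (0.042), Rab9 (0.014), Rab9b (-0.033) and the pair Rab9b and Rab9 (-0.048), and after median centring for Rab9b (-0.023). The cause was not tested.

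When each array was left out, the genes at an unadjusted p under 0.05 numbered 0 to 10, the most without daDREAM replicate 1, where they were 16.9% of Rab genes against 16.1% of all probe sets. Genes without overlap numbered 3 to 18, or 5.08% to 30.5%, where 8.93% to 34.0% of all genes did not overlap. Differences of named genes whose sign turned ran from -0.34 to 0.21 for Rab27a, -0.33 to 0.02 for Rab39b, -0.01 to 0.18 for Rab42, -0.19 to 0.0083 for Rab6b, -0.082 to 0.028 for Rab8a, -0.34 to 0.21 for Rab8b, -0.12 to 0.097 for Rab9 and -0.20 to 0.30 for Rab9b. Pair shifts whose sign turned ran from -0.15 to 0.87 for Rab27b and Rab27a, -0.20 to 0.13 for Rab39b and Rab39, -0.28 to 0.24 for Rab8b and Rab8a, and -0.13 to 0.20 for Rab9b and Rab9. Fits without an array have 2 arrays in 1 genotype.

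The deviations of same-numbered arrays correlated at 0.12, -0.28 and 0.32, and those of wild-type replicate 2 and daDREAM replicate 1 at 0.49. Whether same-numbered arrays were processed together cannot be decided from these values, since deviations from a genotype's mean sum to 0 over few arrays. With the replicate block the count of calls stayed at 0 and the family median at -0.04.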
